A study of Arabidopsis thaliana with 6 samples.

Results

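Serine carboxypeptidase-like (SCPL) genes encode secreted or vacuolar enzymes of the alpha/beta hydrolase fold whose active site carries a serine. Some members cleave single amino acids from the carboxyl end of peptides, as carboxypeptidase Y does in the yeast vacuole. Others have lost that activity and act as acyltransferases that move acyl groups from glucose esters onto plant metabolites, among them SNG1, which makes the leaf sunscreen sinapoylmalate, and SNG2, which makes sinapoylcholine in seeds. BRS1 is a further member, known from genetics as a suppressor of a weak brassinosteroid receptor mutant.

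A probe set is a group of short probes combined into 1 value, and some probe sets are paired with several genes. The genes described here have a platform annotation symbol of SCPL followed by a number, on probe sets paired with exactly 1 gene. They came to 29 genes of the 13356 genes that had such a probe set, and each of the 29 had 1 probe set. Symbols are written in capitals throughout. RefSeq's table for the TAIR10.1 assembly lists 49 genes with an SCPL symbol, and the other 20 were not analysed as members. The gap falls mostly on the low numbers, which hold SNG1 (SCPL8) and SNG2 (SCPL19). Of 18 genes listed as SCPL1 to SCPL19, only SCPL16 and SCPL18 were members, against 27 of the 31 listed as SCPL20 to SCPL51. SNG1, SNG2 and BRS1 (SCPL24) had 0 single-gene probe sets among them in the annotation and were not analysed here. The genes left out could still lie on probe sets listed with no gene or with several.

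The samples were shoots of Col-0 Arabidopsis thaliana seedlings at growth stage 1.03, hybridised to Affymetrix ATH1 arrays, with 3 arrays of 35S::KLU and 3 of the wild type (WT). The 35S::KLU line carries the KLU gene, which encodes the cytochrome P450 monooxygenase CYP78A5, under the viral 35S promoter, which is active in nearly all tissues. Both genotypes grew untreated on the same plates of half-strength medium with 16 h light and 8 h dark per day at 21 °C, in 3 independent experiments, and each sample pooled 5 seedlings. KLU had no single-gene probe set in the annotation, and the transgene's level was not read as a check of the labels. Probe sets listed with no gene or with several could still carry KLU.

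Levels below are the deposited log2 values, and differences are 35S::KLU minus WT on that scale. The test was limma's moderated test over all 22746 probe sets that were not controls, with Benjamini-Hochberg adjustment over all of them and a threshold of 0.05, and this is the source of every adjusted p. In whole shoots, fewer cells expressing a gene and less of its RNA in each cell cannot be told apart. Pairs of arrays of 1 genotype correlated at 0.9952 to 0.9975 over all probe sets, and pairs of different genotypes at 0.9895 to 0.9931. Of 10 leaf markers 4 had a single-gene probe set in the annotation (LHCB4.1, LHCB4.2, RCA and PRK), and all 4 lay above the upper quartile on every array. Their log2 levels summed to 54.23 to 54.33 in 35S::KLU and 54.23 to 54.60 in WT. The 3 of 6 root markers with such a probe set (EXPA7, EXPA18 and PYK10) summed to 19.38 to 19.70 in 35S::KLU and 19.17 to 19.51 in WT. PYK10, a beta-glucosidase of root endoplasmic reticulum bodies, was bright in these shoot samples, with a difference of 0.43 (adjusted p = 0.078). EXPA7 and EXPA18, expansin genes of root hairs, differed the other way, by -0.17 and -0.07 (adjusted p = 0.29 and 0.81), and the median of the 3 was -0.07. The part of root tissue in the results below was not tested. Of 6 flower and pollen markers the annotation paired 1 with a probe set of its own, LAT52, which lay below the median on every array. The 7 seed markers had 0 such pairings and were not analysed here, and probe sets listed with no gene or with several could still carry them.

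Of the 29 SCPL genes, SCPL49, SCPL20 and SCPL29 rose in 35S::KLU and SCPL48 fell, by 1.32-fold to 1.39-fold. The other 25 did not pass the threshold. The 4 genes make up 13.8% of the members, and 8.32% of all probe sets passed, 4.05% higher and 4.27% lower. Among probe sets paired with exactly 1 gene, from which the members come, 6.83% passed. All 3 that rose and the 1 that fell were among the brighter members.

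**Figure D1:**
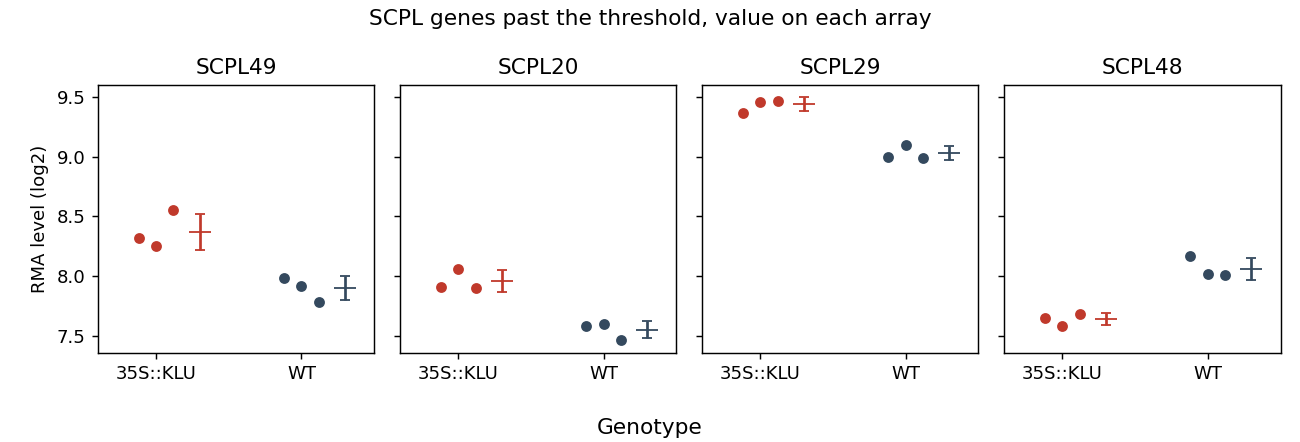
Log2 RMA level of the 4 SCPL genes past the threshold, 1 point per array, with 35S::KLU in red at the left and WT in dark blue at the right of each panel, and bars at the mean ± SD of the 3 arrays. The 3 arrays of each genotype are parted in all 4 panels, with 35S::KLU above WT for SCPL49, SCPL20 and SCPL29 and below it for SCPL48.

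SCPL49 (AT3G10410), listed in RefSeq also as carboxypeptidase Y, had log2 levels of 8.32, 8.25 and 8.55 in 35S::KLU, against 7.98, 7.92 and 7.78 in WT. The lowest 35S::KLU array stood 0.27 above the highest WT array. The mean was 8.37 ± 0.15 in 35S::KLU and 7.90 ± 0.10 in WT (SD, n = 3 each), a difference of 0.48 (SE 0.09, 95% confidence interval 0.27 to 0.69, limma adjusted p = 0.014). This was the largest difference among the 29 genes, and it missed the threshold when WT replicate 2 was left out (0.49, limma adjusted p = 0.056, and between 0.0052 and 0.048 under the other 14 alternatives).

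SCPL48 (AT3G45010), a predicted serine carboxypeptidase, had levels of 7.65, 7.58 and 7.68 in 35S::KLU, against 8.17, 8.02 and 8.01 in WT. All 3 WT arrays lay above all 3 35S::KLU arrays, with a gap of 0.33, the widest of any member. The mean was 7.64 ± 0.05 in 35S::KLU and 8.06 ± 0.09 in WT (SD, n = 3 each), a difference of -0.43 (SE 0.07, 95% confidence interval -0.60 to -0.26, limma adjusted p = 0.0074). SCPL48 fell while SCPL49 rose, and their confidence intervals lie on opposite sides of 0. SCPL47 sat near the lower quartile and had a difference of -0.06 (SE 0.12, limma adjusted p = 0.83). These genes are set side by side by number only, and how closely they are related was not tested.

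SCPL29 (AT4G30810), a predicted serine carboxypeptidase, had levels of 9.37, 9.46 and 9.47 in 35S::KLU, against 9.00, 9.10 and 8.99 in WT. The genotypes did not overlap, and the arrays of each spread little. The mean was 9.44 ± 0.06 in 35S::KLU and 9.03 ± 0.06 in WT (SD, n = 3 each), a difference of 0.40 (SE 0.07, 95% confidence interval 0.25 to 0.56, limma adjusted p = 0.0077). It was the second brightest member and the 1 among the 5 brightest that passed.

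SCPL20 (AT4G12910), also a predicted serine carboxypeptidase, had levels of 7.91, 8.06 and 7.90 in 35S::KLU, against 7.58, 7.60 and 7.46 in WT. Its 35S::KLU arrays lay above the arrays' upper quartile (7.75 to 7.82) and its WT arrays below it. The mean was 7.96 ± 0.09 in 35S::KLU and 7.55 ± 0.07 in WT (SD, n = 3 each), a difference of 0.41 (SE 0.08, 95% confidence interval 0.23 to 0.58, limma adjusted p = 0.011).

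These changes were of middling size for the arrays. Of all probe sets that passed, 52.9% had a smaller absolute difference than SCPL49, 43.3% a smaller one than SCPL48, 37.3% a smaller one than SCPL20 and 36.3% a smaller one than SCPL29. The median difference over the 29 genes was 0.03, beside -0.018 over all probe sets, with 18 members above 0 and 11 below.

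**Figure D2:**
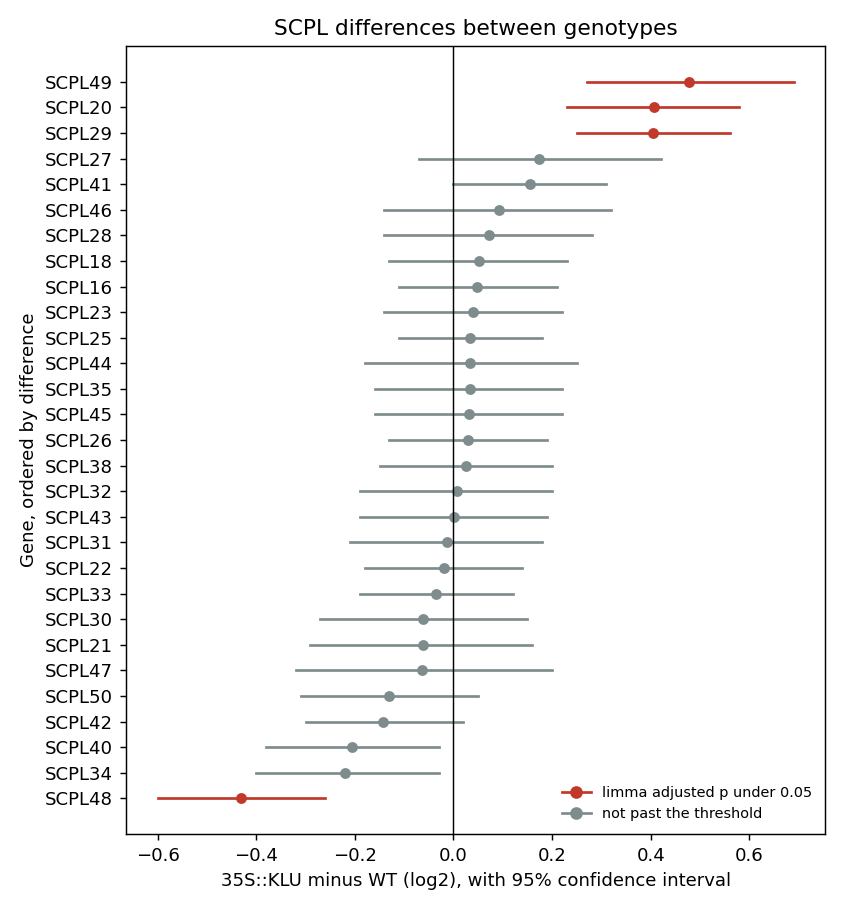
Difference 35S::KLU minus WT (log2, x axis) of the 29 SCPL genes, ordered by difference down the page, with 95% confidence intervals from limma as bars. SCPL49, SCPL20 and SCPL29 lie to the right of 0 and SCPL48 to the left (red, adjusted p under 0.05), and the other 25 (grey) lie between -0.22 and 0.17.

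The members are described here in a brighter and a dimmer set, split at the array median. On all 6 arrays 13 genes lay above the array median (6.01 to 6.05), 7 of them also above the upper quartile. The other 16 lay below the median on all 6 arrays, and 11 of these below the lower quartile (4.06 to 4.11). The mean levels nearest the split were SCPL23 at 5.24 and SCPL50 at 7.26, a range that held 25.8% of all probe sets. Because members set both ends of this range, the lack of members inside it was fixed in advance. Whether the family splits by level was not tested. Brightness also depends on how well the probes of a set bind, so these places on the array do not rank the transcripts by abundance.

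**Figure D3:**
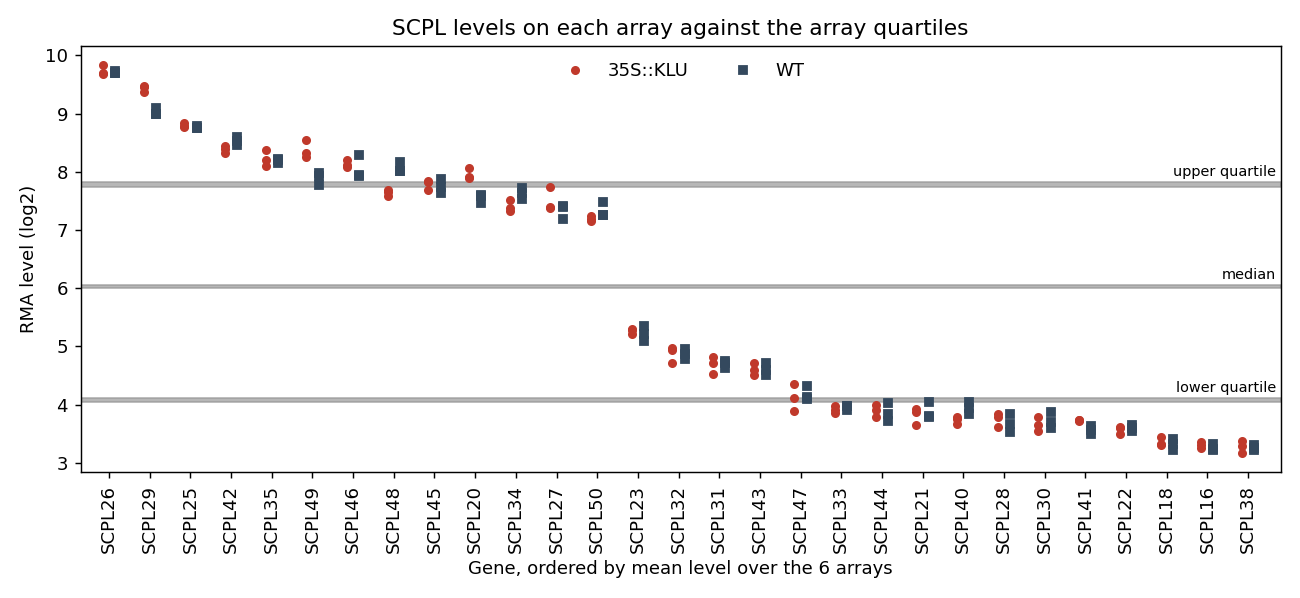
Log2 RMA level of the 29 SCPL genes on each array (y axis), ordered by mean level from left to right, with 35S::KLU as red circles left of WT as dark blue squares and grey bands at the range of the arrays' quartiles and medians. SCPL26 is the brightest at a mean of 9.72 and SCPL38 the dimmest at 3.27. The means nearest the array median are 5.24 (SCPL23) below it and 7.26 (SCPL50) above it.

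The 7 genes above the upper quartile were SCPL26, SCPL29, SCPL25, SCPL42, SCPL35, SCPL49 and SCPL46. SCPL26 had 9.83, 9.68 and 9.70 in 35S::KLU, against 9.73, 9.69 and 9.69 in WT. The genotypes overlapped, with a difference of 0.03 (SE 0.07, 95% confidence interval -0.13 to 0.19). SCPL25 was the most even of the bright members, with 8.84, 8.78 and 8.77 in 35S::KLU, against 8.76, 8.76 and 8.78 in WT. Its difference was 0.03 (95% confidence interval -0.11 to 0.18), so a change of the size seen for SCPL29 lies outside its interval. SCPL35 had 8.38, 8.10 and 8.20 in 35S::KLU, against 8.21, 8.22 and 8.15 in WT, with a difference of 0.03 (95% confidence interval -0.16 to 0.22) and 1 high 35S::KLU array.

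Between the median and the upper quartile on all 6 arrays lay SCPL34, SCPL27 and SCPL50, and SCPL48, SCPL45 and SCPL20 had arrays on both sides of the upper quartile. Among the 13 genes above the median 4 passed, which is 30.8%, and of all probe sets above the median on all 6 arrays 12.7% passed. Among the 11 genes below the lower quartile 0 passed by limma and 2 had an unadjusted p under 0.05. Of all probe sets at that level 0.285% passed and 3.72% had an unadjusted p under 0.05. The 5 genes between these groups were SCPL23, SCPL32, SCPL31, SCPL43 and SCPL47. Their differences lay between -0.06 and 0.04, and 0 of them passed by limma or had an unadjusted p under 0.05.

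**Figure D4:**
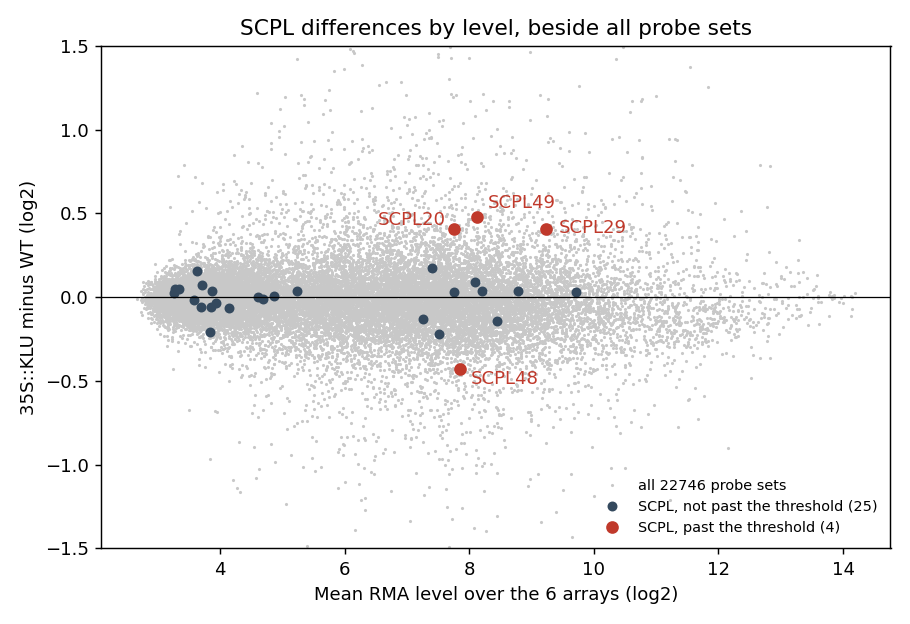
Difference 35S::KLU minus WT (log2, y axis) against the mean level over the 6 arrays (log2, x axis) for all 22746 probe sets in light grey, with 25 SCPL genes in dark blue and the 4 past the threshold in red and named. The y axis ends at 1.5 on either side and leaves out 62 probe sets, and the 4 named genes lie between 7.75 and 9.23 on the x axis.

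For 9 of the 29 genes the 3 arrays of 35S::KLU did not overlap the 3 of WT, with 4 higher and 5 lower in 35S::KLU. Over all probe sets this held for 25.9%, with 11% higher and 14.9% lower, and over probe sets paired with exactly 1 gene for 23.4%. Beside the 4 genes that passed, the members without overlap were SCPL34, SCPL40, SCPL41, SCPL42 and SCPL50. By unadjusted p, 7 members were under 0.05, and the background share was 21.7%.

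SCPL34 had 7.32, 7.52 and 7.38 in 35S::KLU, against 7.63, 7.53 and 7.72 in WT. The genotypes were parted by 0.01 between the nearest arrays, and the difference was -0.22 (SE 0.08, 95% confidence interval -0.40 to -0.03, limma adjusted p = 0.15). SCPL42 had 8.39, 8.44 and 8.33 in 35S::KLU, against 8.53, 8.46 and 8.59 in WT. Its nearest arrays were 0.02 apart, with a difference of -0.14 (SE 0.07, 95% confidence interval -0.30 to 0.02, limma adjusted p = 0.29). SCPL50 had 7.16, 7.19 and 7.24 in 35S::KLU, against 7.26, 7.25 and 7.48 in WT, where replicate 3 stood above the rest. Its difference was -0.13 (SE 0.08, limma adjusted p = 0.41).

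SCPL40 and SCPL41 lay below the lower quartile on every array, where RMA values compress changes. SCPL40 had 3.75, 3.78 and 3.67 in 35S::KLU, against 3.83, 3.94 and 4.04 in WT, with a difference of -0.21 (SE 0.08, limma adjusted p = 0.16). SCPL41 had 3.73, 3.71 and 3.73 in 35S::KLU, against 3.50, 3.63 and 3.57 in WT, with a difference of 0.16 (SE 0.07, limma adjusted p = 0.22). In both genes the genotypes were parted by less than 0.1 on the log2 scale, by 0.05 and 0.08.

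The spread between arrays of a genotype was small, with SDs between 0.01 and 0.23 over the 29 genes. It was widest for SCPL47, SCPL46 and SCPL27. SCPL47 had 4.12, 3.89 and 4.35 in 35S::KLU, against 4.13, 4.32 and 4.1 in WT, and so had arrays on both sides of the lower quartile in 35S::KLU. SCPL46 had 8.09, 8.11 and 8.21 in 35S::KLU, against 8.28, 7.92 and 7.94 in WT, where replicate 1 was high. SCPL46 differed by 0.09 (SE 0.10, limma adjusted p = 0.69). SCPL27 had 7.38, 7.73 and 7.39 in 35S::KLU, against 7.39, 7.41 and 7.18 in WT. Its difference of 0.17 (SE 0.11, 95% confidence interval -0.07 to 0.42, limma adjusted p = 0.42) was the largest upward one among members that did not pass, with replicate 2 high in 35S::KLU and replicate 3 low in WT.

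The remaining 14 genes had adjusted p between 0.73 and 0.99. SCPL45, close to the upper quartile, had a difference of 0.03 (95% confidence interval -0.16 to 0.22). The other 13 were dim: SCPL23, SCPL32, SCPL31 and SCPL43 between the lower quartile and the median, and SCPL16, SCPL18, SCPL21, SCPL22, SCPL28, SCPL30, SCPL33, SCPL38 and SCPL44 below the lower quartile. SCPL16 and SCPL18, the 2 members from the low numbers, had mean levels over all 6 arrays of 3.28 and 3.34 and a difference of 0.05 each. Over the 25 genes that did not pass, the 95% confidence intervals of the differences lay between -0.40 and 0.42, so changes up to that size lie within the intervals of some of them.

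In 2 cases members are next to each other among the protein-coding genes of the RefSeq table, and in both the neighbours lay in different ranges of the arrays. SCPL26 lay above the upper quartile on all 6 arrays and its neighbour SCPL28 below the lower quartile, with 3.62, 3.84 and 3.78 in 35S::KLU, against 3.53, 3.83 and 3.66 in WT. SCPL23 lay between the lower quartile and the median, at 5.21, 5.28 and 5.29 in 35S::KLU, against 5.09, 5.22 and 5.35 in WT. Its neighbour SCPL22 lay below the lower quartile, at 3.49, 3.62 and 3.60 in 35S::KLU, against 3.64, 3.54 and 3.59 in WT. None of these 4 genes passed the test.

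Genes listed for the sinapate ester pathway, in which the SCPL acyltransferases SNG1 and SNG2 act, were read from the same fit. Of 22 listed genes of the sinapate ester pathway 5 had a single-gene probe set, and 1 of these fell, 0 rose and 4 did not pass, beside 4.27% of all probe sets that fell and 4.05% that rose. Their median difference was -0.11. The listed genes FAH1, UGT84A2, SNG1 and SNG2 had no single-gene probe set in the annotation and were not analysed here. They could still lie on probe sets listed with no gene or with several. The gene that fell was HCT, which encodes a hydroxycinnamoyltransferase of the general phenylpropanoid pathway. It had 9.65, 9.77 and 9.56 in 35S::KLU, against 9.90, 10.09 and 10.16 in WT, without overlap, and a difference of -0.39 (SE 0.09, limma adjusted p = 0.027). REF1, whose aldehyde dehydrogenase forms sinapate and ferulate, differed by 0.09 (limma adjusted p = 0.65). The hydroxycinnamate glucosyltransferase genes UGT84A1, UGT84A3 and UGT84A4, whose enzymes can make the glucose esters that SCPL acyltransferases use as donors, differed by -0.18, 0.08 and -0.11 (limma adjusted p between 0.30 and 0.74).

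Anthocyanins also receive acyl groups from enzymes of another family, the BAHD acyltransferases. Of 3 listed genes 1 had a single-gene probe set, 5MAT, an anthocyanin malonyltransferase gene, and it rose 2.57-fold. It had 6.85, 6.75 and 6.40 in 35S::KLU, against 5.30, 5.32 and 5.29 in WT (limma adjusted p = 0.00011). Of 15 listed brassinosteroid genes 1 had a single-gene probe set in the annotation, the receptor gene BRL1. The others were not analysed here and could still lie on probe sets listed with no gene or with several. BRL1 lay below the lower quartile and differed by 0.02 (limma adjusted p = 0.92).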

How the data were processed

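Biotin-labelled RNA of 3 35S::KLU and 3 WT shoot samples was hybridised to 1 single-colour array each. The deposited table holds log2 values made with RMA, per the submitters' processing notes, which give no version. RMA adjusts for background, puts the arrays on 1 distribution and combines the probes of each set. RMA compresses changes of dim probe sets. Arrays were matched to genotypes by their labels. No detection calls were used, and the number of arrays limits precision. Of 22810 probe sets, 64 controls were left out and no filter on level was set. Of the rest, 13513 had 1 gene in the platform annotation, 503 had several and 8730 had none, and 13436 of the 13513 matched RefSeq's TAIR10.1 table. The files' genome build is not given in the sources used here, so no positions are printed.

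Differences were fitted with limma 3.58.1 (lmFit, eBayes, two-sided) in R 4.3.3 over all 6 arrays without a block. Each member's 6 values were set against each array's quartiles. The fit was tested on simulated data. Figures used Python 3.11.15 and matplotlib 3.10.9. Replicates are labelled biological. Members and lists were chosen with earlier results of these data known. Genes described one by one were those past the threshold, those whose genotypes did not overlap, the 5 brightest and the 3 with the largest SD within a genotype, and all other members are given by group. From related lists, members past the threshold were named, and up to 4 others. Alternatives were 3 scalings, a replicate block, array weights, other eBayes settings, a filter on dim probe sets, leaving out each array, gene-level summaries and other thresholds.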

Additional observations from a re-analysis of the deposited data

How the results depend on the processing

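SCPL48, SCPL29 and SCPL20 kept their direction and stayed past the threshold under all 15 alternatives to the fit, with limma adjusted p up to 0.033, 0.035 and 0.046, and SCPL49 under 14 of 15. The exception is the fit without WT replicate 2. Each member had 1 probe set, so the gene-level summaries could not move its difference. The filter on dim probe sets, the replicate block and other eBayes settings also left the differences of these genes unchanged. Under those alternatives only the adjusted p could move. The 11 other members described one by one stayed short of the threshold in each fit that held them, and the filter on dim probe sets, which kept 18 of the 29 genes, dropped SCPL40 and SCPL41. At a threshold of 0.01, 1 SCPL gene was higher (SCPL29) and 1 lower (SCPL48). Leaving out 1 array gave 2 to 3 members higher, 1 lower, and a median difference over the members of -0.015 to 0.042. The count of all probe sets passing was 789 at a threshold of 0.01 and 2978 with array quality weights, against 1893. It ran from 906 to 1962 on leaving out 1 array, from fits with fewer samples. Among WT arrays, dropping replicate 2 gave 906 and dropping replicate 3 gave 1236. Among 35S::KLU arrays, dropping replicate 2 gave 1219 and dropping replicate 3 gave 1142.

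Same-numbered arrays did not deviate together (correlations of -0.205, 0.039 and -0.056 for replicates 1 to 3), so the numbers were not taken to pair the samples. Differently numbered arrays of the 2 genotypes correlated at -0.154 to 0.21, and a pairing by experiment in another order was not tested. With the replicate number as a block 3 members were higher, 1 was lower and 1279 probe sets passed, and SCPL49 had an adjusted p of 0.046. The share of higher calls among all probe sets passing was 48.7% as deposited and 51.2% to 56.2% under the other scalings.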

Other observations

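Probe sets paired with several genes were not counted as members, and 2 of them include SCPL genes. The probe set shared by SCPL36 and SCPL37 had 3.66, 3.56 and 3.67 in 35S::KLU, against 3.73, 3.64 and 3.65 in WT, and the one shared by SCPL39 and AT3G56540 had 3.31, 3.36 and 3.28 in 35S::KLU, against 3.38, 3.25 and 3.31 in WT. Both lay below the lower quartile on all 6 arrays, with differences of -0.04 (limma adjusted p = 0.80) and 0.01 (limma adjusted p = 0.98).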
